A study of Mus musculus with 4 samples.

Results

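Ribosomal protein genes encode the protein part of the cytosolic ribosome, which is built from a small subunit that reads the mRNA (Rps genes) and a large subunit that joins amino acids (Rpl genes and the stalk genes Rplp0, Rplp1 and Rplp2). Members were taken by symbol from the gene lists that the authors deposited for ChIP-seq (sequencing of DNA bound by a protein) with newborn mouse kidney, leaving out Rps6k kinases and pseudogenes with -ps in their symbol. They came to 37 of the 8666 genes present in the control or the Foxp1KspKO list. The RefSeq gene table holds 85 protein-coding genes that fit the same symbol rule, so 48 ribosomal protein genes were in neither list. Of the 65 of them with a RefSeq promoter sequence, 37 were in neither list, as were 11119 of all 17492 such protein-coding genes.

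The study used 4 libraries, each group holding 1 library: newborn littermate controls and Foxp1KspKO mice each gave a ChIP library and an input library of unselected chromatin. Foxp1 is a forkhead transcription factor, and the knockout takes its name from Ksp-cadherin, whose promoter drives Cre recombinase in kidney tubule epithelium, so that other kidney cells keep the gene. The strain, the number of animals in each library, their sex and any pooling are not stated in the labels. Kidneys were digested with collagenase and sieved to collect tubular cells, and both genotypes went through the same steps. As their antibody, the sample labels list rabbit IgG for the control ChIP and anti-Foxp1 for the Foxp1KspKO ChIP, although the description fields name both libraries FoxP1. This conflict is unresolved, and the titles' genotype names each library below. The deposited lists give 1 p-value per gene, all under 0.05, and no peak, read count, fold enrichment or expression level. Neither the depth nor the tubular identity of the cells could be checked from them, and bound chromatin in fewer cells cannot be told apart from weaker binding per cell. With 1 library per genotype no difference between the lists has a replicate check, and no test of the genotype was made.

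RNA polymerase II transcribes the ribosomal protein genes at a high and coordinated rate, and growing tissues such as the newborn kidney need large amounts of their products. Many of their mRNAs start with a run of pyrimidines, the terminal oligopyrimidine tract, through which mTORC1 and the RNA-binding protein Larp1 control their translation. Their promoters commonly hold sites for ETS factors, Sp factors and YY1. In humans, loss of 1 copy of several of these genes causes Diamond-Blackfan anaemia, a failure of red cell production.

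The promoters of the members with the lowest p-values show how varied these start regions are. RefSeq promoter windows (GRCm38.p6) were held for 65 of the 85 genes and for 28 of the 37 listed ones. The windows below run from 100 bases before the annotated start to 10 bases after it, 5′ to 3′. The annotated start used for Rpl18 lies 2604 bp inside the gene's RefSeq span, and the other starts lie at the 5′ end of theirs. Capitals mark a run of 5 or more pyrimidines that reaches the 15 bases around the start, or a match on either strand to one of the motifs spelled out with the motif counts. Rpl18 (chr7:45717971-45718080, plus strand), Rpl27 (chr11:101442145-101442254, plus strand), Rpl36a (chrX:134585554-134585663, plus strand) and Rps24 (chr14:24490578-24490687, plus strand) are shown because they had the lowest p-values of their library. Rpl30 was also among the lowest. Rpl35 (chr2:39005122-39005231, minus strand) and Rps10 (chr17:27635235-27635344, minus strand), with long pyrimidine runs, and Rplp0 (chr5:115559367-115559476, plus strand), an unlisted member with none, were added after their values were seen.

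Rpl18: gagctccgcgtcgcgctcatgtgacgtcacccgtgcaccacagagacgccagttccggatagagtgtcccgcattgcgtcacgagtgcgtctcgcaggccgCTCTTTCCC
Rpl27: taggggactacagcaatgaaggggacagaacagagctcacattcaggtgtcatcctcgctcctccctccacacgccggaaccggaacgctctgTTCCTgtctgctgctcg
Rpl36a: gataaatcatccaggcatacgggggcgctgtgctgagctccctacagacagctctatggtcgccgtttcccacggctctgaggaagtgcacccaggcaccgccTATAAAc
Rps24: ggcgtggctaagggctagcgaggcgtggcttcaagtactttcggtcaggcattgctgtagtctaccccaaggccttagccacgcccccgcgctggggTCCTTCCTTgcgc
Rpl35: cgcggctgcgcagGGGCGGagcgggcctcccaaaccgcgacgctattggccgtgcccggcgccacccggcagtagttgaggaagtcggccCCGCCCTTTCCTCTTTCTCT
Rps10: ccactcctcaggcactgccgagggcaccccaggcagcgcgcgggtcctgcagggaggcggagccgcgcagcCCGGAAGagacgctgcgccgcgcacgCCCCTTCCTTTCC
Rplp0: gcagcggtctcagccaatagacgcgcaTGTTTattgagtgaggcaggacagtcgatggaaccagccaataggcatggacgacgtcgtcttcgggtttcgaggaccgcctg

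The control list held 27 of the 85 ribosomal protein genes (31.8%, exact 95% interval 22.1 to 42.8), beside 29.0% of all 21900 protein-coding genes. The Foxp1KspKO list held 25 (29.4%, 20.0 to 40.3), beside 20.9%. Both shares had intervals that include these all-gene shares. All intervals here are exact binomial ones that cover counting error only and treat genes as independent. Listed in both were 15 members (17.6%, 10.2 to 27.4, beside 13.2% of all genes), in the control list alone 12 (14.1%, beside 15.7%) and in the Foxp1KspKO list alone 10 (11.8%, 5.79 to 20.6, beside 7.63%). Ribosomal protein genes are short, with a median length of 3175 bp against 17146 bp for all protein-coding genes. Among the 8624 protein-coding genes within the members' range of lengths, 592 to 11774 bp, the control list held 24.0% and the Foxp1KspKO list 18.8%. The interval of the control members includes the first of these, and that of the Foxp1KspKO members lies just above the second, so the reading of the Foxp1KspKO share depends on the background.

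**Figure D1:**
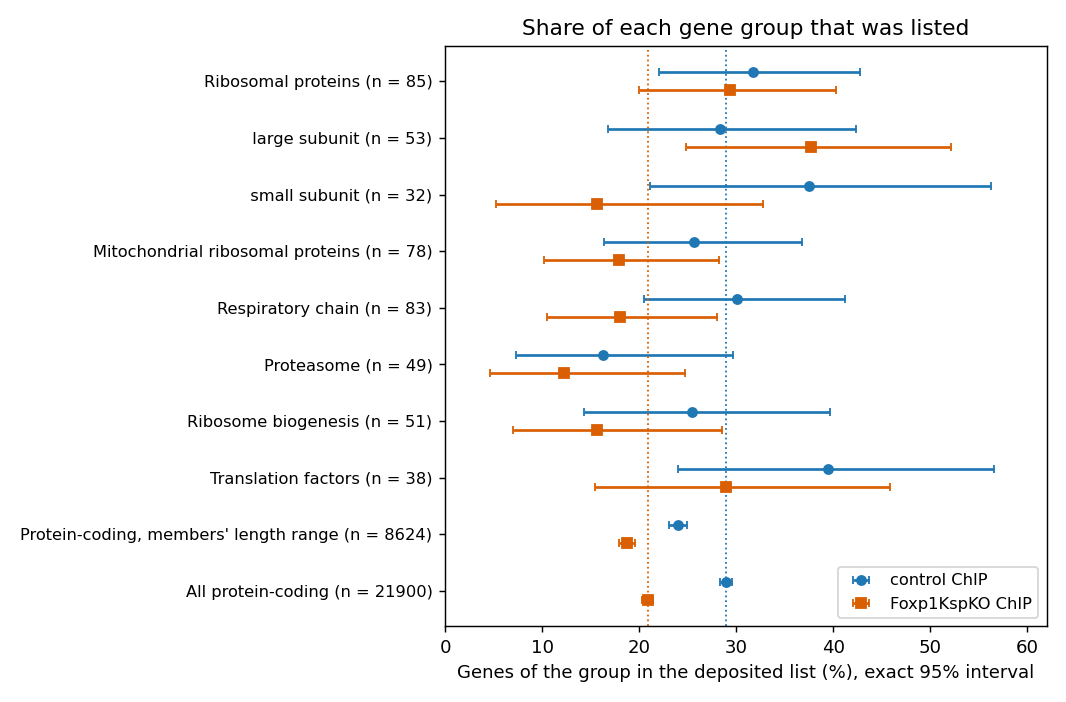
Percentage of each gene group present in the deposited list of the control ChIP (circles) and the Foxp1KspKO ChIP (squares), with exact 95% binomial intervals and the share of all protein-coding genes as dotted lines. Ribosomal protein genes lie at 31.8% and 29.4%, large subunit genes at 28.3% and 37.7%, and small subunit genes at 37.5% and 15.6%.

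The subunits differed in how they were spread over the lists, a split made after the values were seen and given without a test. Of 53 large subunit genes, the control list held 15 (28.3%, 16.8 to 42.3) and the Foxp1KspKO list 20 (37.7%, 24.8 to 52.1), beside 29.0% and 20.9% of all genes. The second of these intervals lies above the share of all genes, but this is no test, because the split was chosen after the values were seen. Small subunit genes numbered 12 of 32 (37.5%, 21.1 to 56.3) and 5 of 32 (15.6%, 5.28 to 32.8). All 10 members present in the Foxp1KspKO list alone were large subunit genes, and 0 of the 32 small subunit genes were (0 to 10.9%), an interval that includes the 7.63% of all genes in that list alone. The 12 members of the control list alone were 5 large and 7 small subunit genes. With p under 0.01 the Foxp1KspKO list held 10 of 53 large and 4 of 32 small subunit genes, beside 12.6% of all genes. The control list then held 11 and 10, beside 21.1%. The intervals of the subunits overlap in each library.

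Across the 27 control members the median p-value in the authors' deposited table was 9.67e-04, against 0.00113 for all listed protein-coding genes. Across the 25 Foxp1KspKO members it was 0.00833, against 0.00536. Rpl18 and Rpl27 were, by the authors' deposited table, the 2 members with a control p-value under 1e-10, and 0 members of the Foxp1KspKO list went so low. At p under 0.01 there were 21 control members (24.7%, beside 21.1% of all genes) and 14 Foxp1KspKO members (16.5%, beside 12.6%). At p under 0.001 there were 14 (16.5%, beside 14.3%) and 7 (8.24%, beside 6.62%). After Benjamini-Hochberg adjustment over all protein-coding genes, which treats the deposited p-values as unadjusted, there were 23 (27.1%, beside 21.3%) and 10 (11.8%, beside 10.3%). The individual values are in the plot of listed members.

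**Figure D2:**
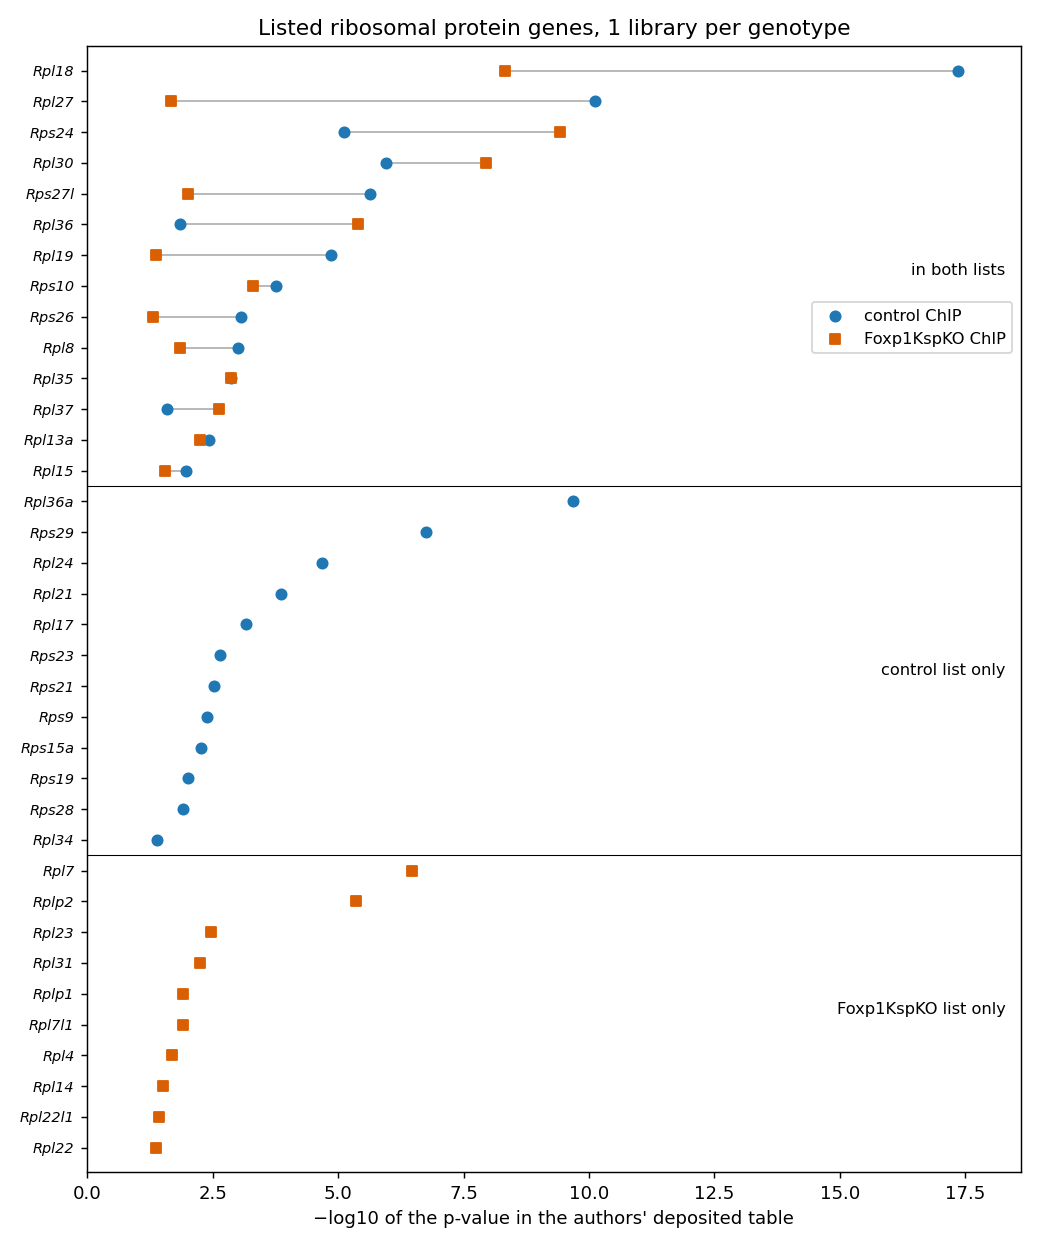
−log10 of the p-value in the authors' deposited table for 36 of the 37 listed ribosomal protein genes, in the control ChIP (circles) and the Foxp1KspKO ChIP (squares), 1 library each. The upper block holds 14 of the 15 genes of both lists, with a line joining the values, and the lower blocks the 12 genes of the control list alone and the 10 of the Foxp1KspKO list alone. Rpl18 lies farthest to the right among the control values and Rps24 among the Foxp1KspKO values.

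Among the large subunit genes, Rpl18 had the lowest p-value of any member in the control ChIP and the second place in the Foxp1KspKO ChIP. In the authors' deposited table Rpl18 (chromosome 7, 45715467 to 45720835, GRCm38) had 4.37e-18 for the control and 4.63e-09 for the Foxp1KspKO library, rank 172 of 6799 and 112 of 4953 genes. The gene lies 5264 bp from Dbp, a circadian transcription factor gene that was also in both lists (4.92e-09 and 8.85e-05 in the authors' deposited table). Rpl18 was thus near the top of both lists.

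Rpl30, whose product sits at a contact between the subunits, stood higher in the Foxp1KspKO list than in the control list. The authors' deposited table gave Rpl30 (chromosome 15, 34440505 to 34443276) 1.13e-06 for the control and 1.15e-08 for the Foxp1KspKO library, rank 1296 and rank 133. Rpl36 (chromosome 17, 56610094 to 56614246) showed the same order with a wider gap, 0.0140 against 3.96e-06 in the authors' deposited table, rank 5240 and rank 402. For Rpl37 (chromosome 15, 5116613 to 5119140) the authors' deposited table had 0.0253 and 0.00235. These genes, with Rpl35 and the small subunit gene Rps24, were the 5 shared members with the lower p-value in the Foxp1KspKO ChIP.

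Rpl27 stood near the top of the control list and low in the Foxp1KspKO list. With the authors' deposited table as the source, Rpl27 (chromosome 11, 101442245 to 101445596), a gene altered in some human patients with Diamond-Blackfan anaemia, had 7.71e-11 for the control and 0.0210 for the Foxp1KspKO library, rank 490 and rank 3779. Rpl19 (chromosome 11, 98022003 to 98030493), whose protein also reaches across the subunit interface, had 1.39e-05 and 0.0430 in the authors' deposited table. Its neighbours had lower p-values than Rpl19 itself in both libraries. They were Cacnb1, a calcium channel subunit gene that overlaps it (1.17e-08 and 3.88e-04 in the authors' deposited table), and Stac2, 6130 bp away (4.05e-09 and 2.35e-04). Which of these genes the signal at Rpl19 lies closest to cannot be read from gene lists.

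The other large subunit genes of both lists had modest values in both libraries. Rpl8 (chromosome 15, 76904071 to 76906318), a protein near the peptidyl transferase centre where peptide bonds form, had 9.67e-04 for the control and 0.0145 for the Foxp1KspKO library of the authors' deposited table. Rpl35 (chromosome 2, 39001581 to 39005131), which lies at the exit of the tunnel through which the new chain leaves, had 0.00137 and 0.00134 in the authors' deposited table, the smallest difference of any shared member on the −log10 scale. For Rpl13a (chromosome 7, 45125563 to 45128745), whose product also has a role in silencing inflammatory mRNAs outside the ribosome, the authors' deposited table listed 0.00373 and 0.00554. Rpl15 (chromosome 14, 18267823 to 18270986) had 0.0107 and 0.0279 in the authors' deposited table. These p-values lay between 9.67e-04 and 0.0279 throughout.

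Of the 5 small subunit genes in both lists, Rps24 had the lowest p-value in the Foxp1KspKO ChIP among all members. In the authors' deposited table Rps24 (chromosome 14, 24490678 to 24496960), needed for maturation of the small subunit's RNA, had 7.66e-06 for the control and 3.75e-10 for the Foxp1KspKO library, rank 1646 and rank 71. Rps10 (chromosome 17, 27630415 to 27635244), a protein that is ubiquitinated when ribosomes collide, had 1.71e-04 and 5.01e-04 in the authors' deposited table. Its neighbour Nudt3 was also in both lists.

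Rps27l, a paralog of Rps27 that p53 induces, and Rps26, near the channel through which the mRNA leaves, had lower p-values in the control ChIP. The authors' deposited table gave Rps27l (chromosome 9, 66944624 to 66949522) 2.34e-06 and 0.00977, and Rps26 (chromosome 10, 128624529 to 128626506) 8.51e-04 and 0.0482. Rps26 was the member closest to the listing threshold of 0.05. In all, the control ChIP had the lower p-value for 10 of the 15 shared members (66.7%), beside 72.2% of the 2900 shared protein-coding genes.

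**Figure D3:**
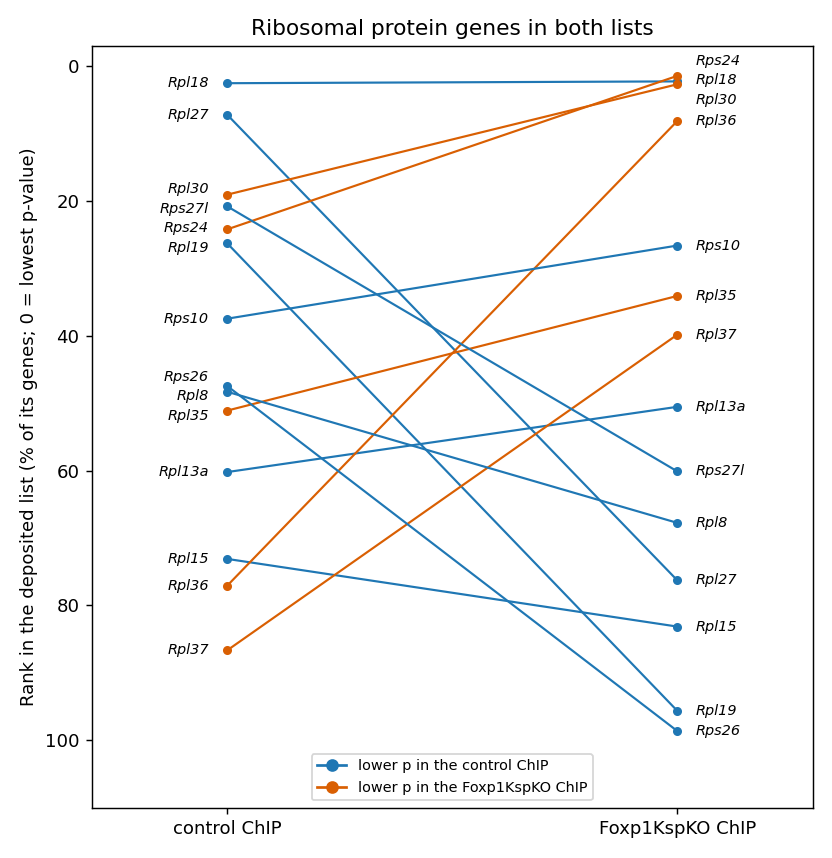
Rank of 14 of the 15 ribosomal protein genes of both lists within the control list (left, 6799 genes) and the Foxp1KspKO list (right, 4953 genes), as a percentage of the list, with 0 for the lowest p-value. Lines are coloured by the library with the lower p-value. Rpl18 is near the top on both sides, Rps24, Rpl30 and Rpl36 lie higher on the right, and Rpl27, Rpl19 and Rps26 lie lower on the right.

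All 12 members found for the control ChIP alone were in the authors' unique list, with unchanged p-values. For all protein-coding genes of the control list alone, that list held 92.6%. The unique list was not limited to such genes, as 3189 of its 3302 protein-coding genes were in the control list alone. It contained no ribosomal protein gene of both lists. The 12 genes are 14.1% of the 85 members, beside 15.1% of all protein-coding genes in that list.

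Of the large subunit genes among them, Rpl36a, an X-linked gene with the autosomal copy Rpl36al, came first. The authors' deposited table gave Rpl36a (chromosome X, 134585654 to 134588062) 2.07e-10 in the control ChIP, rank 541. Its neighbours Gla, the lysosomal alpha-galactosidase gene 107 bp away, and Btk were listed for the control as well, at 0.00388 and 0.0362 in the authors' deposited table. Rpl24 (chromosome 16, 55966275 to 55971437), the gene of the Belly spot and tail mouse mutant, had 2.12e-05 in the authors' deposited table. Rpl21 (chromosome 5, 146832890 to 146837032) had 1.35e-04 in the authors' deposited table, and Rasl11a, 8039 bp away, had a lower value there (7.80e-08). Rpl17, whose protein lines the exit tunnel, and Rpl34 (chromosome 3, 130726827 to 130730398) had 6.81e-04 and 0.0400 in the authors' deposited table. The 5 genes thus ranged from among the lowest control p-values to close to the threshold.

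The 7 small subunit genes of the control list alone were led by Rps29, a zinc-binding protein. The authors' deposited table gave Rps29 (chromosome 12, 69157722 to 69159186) 1.77e-07 in the control ChIP, rank 1049. The other 6 lay between 0.00225 and 0.0123. Rps23 (chromosome 13, 90923122 to 90924732), part of the decoding centre, had 0.00225 in the authors' deposited table, and Rps21 (chromosome 2, 180257379 to 180258444) had 0.00300. Rps9 (chromosome 7, 3703954 to 3706897), at the mRNA entry, had 0.00401 and Rps15a (chromosome 7, 118104374 to 118116147) 0.00551 in the authors' deposited table. Rps19 (chromosome 7, 24884592 to 24889811), the gene most often altered in human Diamond-Blackfan anaemia, had 0.01003 in the authors' deposited table. Rps28 (chromosome 17, 33823036 to 33824562), beside Rps26 at the mRNA exit, had 0.0123 there. Apart from Rps29 these genes stood in the weaker part of the control list, between rank 3747 and rank 5113.

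The Foxp1KspKO list alone held Rpl7 and Rplp2 with low p-values and 8 further large subunit genes with weaker ones. Rpl7 (chromosome 1, 16101295 to 16104433) had, in the authors' deposited table, 3.33e-07 in the Foxp1KspKO ChIP, rank 239. Rplp2 (chromosome 7, 141447651 to 141451359) had 4.37e-06 in the authors' deposited table, rank 414. Its product forms, with that of Rplp1, the flexible stalk that recruits elongation factors. Rplp1 (chromosome 9, 61913283 to 61914510) was listed for the same library with 0.0122 in the authors' deposited table, while Rplp0, the base of the stalk, was in neither list.

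Rpl23 (chromosome 11, 97777526 to 97782439), whose free protein binds the p53 regulator Mdm2, had 0.00344 in the Foxp1KspKO ChIP of the authors' deposited table. Rpl31 (chromosome 1, 39367851 to 39371911), at the tunnel exit, had 0.00572 and Rpl4 (chromosome 9, 64173387 to 64178562), at the tunnel's constriction, 0.0207 in the authors' deposited table. Rpl22 (chromosome 4, 152324436 to 152334082) and its paralog Rpl22l1 (chromosome 3, 28805508 to 28807424), which can replace each other in the ribosome, had 0.0432 and 0.0365 in the authors' deposited table. Rpl7l1 (chromosome 17, 46773907 to 46782656), a paralog of Rpl7, and Rpl14 (chromosome 9, 120571517 to 120574653) had 0.0124 and 0.0316 in the authors' deposited table. Paralog pairs were thus present here for Rpl7 and for Rpl22, and whether reads were divided between the genes of a pair was not tested.

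The 48 members in neither list included Rpl5 and Rpl11, which carry the 5S RNA and bind Mdm2 when ribosome assembly fails, Rps6, the substrate of S6 kinase, and Rpsa, Rps3 and Rpl38. Of the 8 -like paralogs, Rps27l, Rpl22l1 and Rpl7l1 were listed, and Rpl3l, Rpl10l, Rpl32l, Rpl36al and Rpl39l were not. Listed and unlisted members had median lengths of 3572 and 2808.5 bp. By chromosome, the 14 members on chromosome 7 had 6 in the control and 4 in the Foxp1KspKO list. Over all chromosomes the lists held 29.0% and 20.9% of protein-coding genes. The 8 members on chromosome 17 had 3 and 3, and the 7 on chromosome 11 had 2 and 3. The 7 on chromosome 9 had 1 (Rps27l) and 4 (Rps27l, Rplp1, Rpl4 and Rpl14). These counts are small, and differences between chromosomes were not tested.

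A listed gene can share its signal with a neighbour. Another gene of the same list lay within 10 kb of 9 of the 27 control members (33.3%) and of 6 of the 25 Foxp1KspKO members (24.0%), beside 22.8% and 20.0% of all listed protein-coding genes. Rpl18, Rpl19, Rps10 and Rps27l had the same listed neighbours in both libraries. The p-value of 18 control and 20 Foxp1KspKO members was also carried by at least 1 other gene, but in 0 cases by a gene within 1 Mb. No repeated value was thus shared between adjacent genes.

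Runs of pyrimidines at the start were more frequent in the listed members than in the unlisted ones, a comparison chosen after the values were seen and not tested. A run of at least 5 pyrimidines within the 15 bases from 5 before to 10 after the start was present in 30 of the 65 member promoters (46.2%), beside 26.6% of 17492 protein-coding promoters. It was present in 9 of the 11 members of both lists (81.8%), in 5 of 9 of the control list alone, in 4 of 8 of the Foxp1KspKO list alone and in 12 of 37 unlisted ones (32.4%). Over all genes the control list had such a run in 26.4% of promoters and the Foxp1KspKO list in 25.2%. The printed windows of Rpl35 and Rps10 show the longest runs among the 7 windows. Those of the unlisted Rplp0 and the listed Rpl36a have none marked. The marked run of Rpl27 lies partly outside the 15 bases, with 3 of its bases inside, and was not counted. Annotated starts can lie a few bases from the true ones, and a window without a run says only that these letters are not there.

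**Figure D4:**
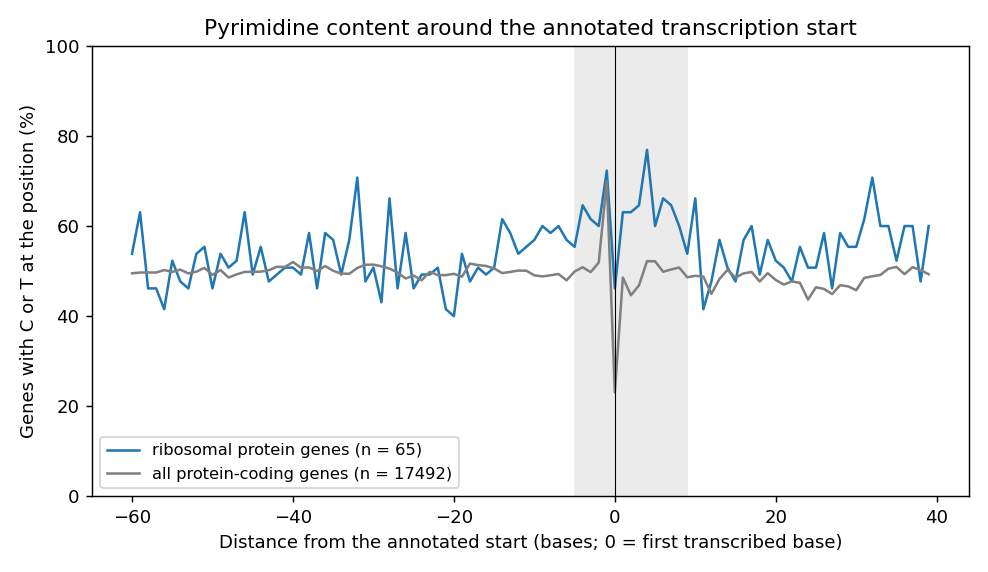
Percentage of genes with C or T at each position from 60 bases before to 40 bases after the annotated transcription start, for the 65 ribosomal protein genes with a promoter window and for 17492 protein-coding genes. The shaded band marks the 15 bases searched for pyrimidine runs, where the ribosomal protein genes lie above the other genes.

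Promoter motifs were searched on both strands of the 300-base windows. The forkhead letters TGTTTAC were in 0 of 20 control-listed and 0 of 19 Foxp1KspKO-listed member promoters, beside 2.93% of all promoters, and in 1 unlisted member. The shorter core TGTTT, which every TGTTTAC match also holds, was in 8 of 20 (40.0%) and 4 of 19 (21.1%), beside 46.1%. The 2 lists share 11 of these promoters. Among unlisted members the core was in 12 of 37 (32.4%). Over all genes it was in 43.8% of control-listed and 41.8% of Foxp1KspKO-listed promoters. The ETS letters CCGGAAG were in 25 of the 65 members (38.5%, beside 11.9%). Split by list, a division made after the values were seen, they were in 7 of the 11 members of both lists, in 1 of 9 of the control list alone, in 2 of 8 of the Foxp1KspKO list alone and in 15 of 37 unlisted ones (40.5%). The Sp letters GGGCGG were in 39 (60.0%, beside 46.3%), the YY1 letters AAGATGGC in 6 (9.23%, beside 3.21%), the E-box CACGTG in 5 (7.69%, beside 7.91%) and TATAAA in 8 (12.3%, beside 13.3%). The 5 members with CACGTG were all listed genes, Rpl13a, Rpl14, Rpl19, Rpl23 and Rpl34, a split that was not tested. Over all genes CACGTG was in 8.82% of control-listed, 8.83% of Foxp1KspKO-listed and 7.53% of unlisted promoters. GC content had a median of 60.2% in control-listed members, 60.0% in Foxp1KspKO-listed ones and 56.3% in unlisted ones, beside 59.3%, 59.3% and 55.0% over all genes of the same lists. The members therefore follow the same order in GC content as all genes.

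Other gene groups of protein synthesis and of large housekeeping complexes were counted in the same way. Over all protein-coding genes the control list held 29.0%, the Foxp1KspKO list 20.9% and both lists 13.2%. For mitochondrial ribosomal proteins the control list held 20 of 78 genes (25.6%), the Foxp1KspKO list 14 (17.9%) and both lists 4 (5.13%). Respiratory chain genes numbered 25 and 15 of 83 (30.1% and 18.1%), with 7 in both (8.43%). Proteasome genes numbered 8 and 6 of 49 (16.3% and 12.2%), with 1 in both (2.04%). This was Psmd13, to which the authors' deposited table gave 3.16e-04 for the control and 1.29e-17 for the Foxp1KspKO library. Of the control-listed genes, the Foxp1KspKO list also held 55.6% for ribosomal proteins, 20.0% for mitochondrial ribosomal proteins, 28.0% for the respiratory chain and 12.5% for the proteasome, beside 45.7% of all protein-coding genes. Translation factors (53.3%) and regulators of ribosomal protein genes (46.7%) lay closer to the ribosomal proteins and to all genes. Ribosome biogenesis genes (30.8%, 4 genes in both lists) lay closer to the respiratory chain. As shares of the Foxp1KspKO-listed genes the same overlaps were 60.0%, 28.6%, 46.7% and 16.7%, with 72.7% for translation factors and 87.5% for the regulators, beside 63.4%. These differences between groups were not tested.

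Among the genes that build and run ribosomes, 13 and 8 of 51 ribosome biogenesis genes were listed (25.5% and 15.7%, beside 29.0% and 20.9% of all genes). They were led in both libraries by Ubtf, which activates transcription of ribosomal RNA (8.57e-20 for the control and 4.38e-05 for the Foxp1KspKO library of the authors' deposited table). Translation factors numbered 15 and 11 of 38 (39.5% and 28.9%). Eif4e, the cap-binding protein, had 2.49e-12 and 5.70e-12 and the elongation factor gene Eef2 4.10e-15 and 9.73e-08 in the authors' deposited table. Regulators of ribosomal protein genes and of their translation numbered 15 and 8 of 27 (55.6%, 35.3 to 74.5, and 29.6%, 13.8 to 50.2). The control interval of these regulators lies above the 29.0% of all genes, and their Foxp1KspKO interval includes the 20.9%. This is no test, because the gene list was chosen with earlier results of these data known. The intervals of the 2 libraries overlap, and the difference between them was not tested. For the control library their median p-value in the authors' deposited table was 6.44e-09, and the lowest belonged to Mnt (3.04e-27) and Myc (2.92e-24), which encode an antagonist and an activator at E-boxes. For the Foxp1KspKO library the authors' deposited table gave these genes 1.69e-07 and 2.91e-10. Of 10 ribosomal protein fusion and partner genes, 2 were in each list, among them Fau, the source of the small subunit protein Rps30, with 0.0328 in the Foxp1KspKO ChIP of the authors' deposited table.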

How the data were processed

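ChIP-seq of newborn mouse kidney tubular cells was analysed from 3 gene lists. The submitters' processing notes list the tools Bowtie2, Trimmomatic, FastQC, edgeR and deepTools, besides the builds mm10 and GRCm38, with no version or role. The authors deposited 1 p-value per gene, and the test, its reference library, the window around a gene and any correction were not given in these sources. Depth is unknown. The lists were tied to the control and Foxp1KspKO ChIP through their sheet names, which match the sample descriptions.

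Rows were joined by NCBI gene number, keeping the lowest p-value, to the RefSeq table of GRCm38.p6, which supplied coordinates (1-based), biotypes and promoters, with 1 promoter per gene nearest its 5′ end. All 37 listed members matched. The 21900 protein-coding genes served as background. Intervals are exact Clopper-Pearson 95% intervals (scipy 1.17.1, Python 3.11.15). No test was made. Counting and adjustment steps were tested on simulated data.

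The members and gene lists were chosen with earlier results of these data known. One listed member is counted but not reported singly here, and every other one is named. Full values are given for the other members of both lists, of the unique list and the 6 lowest p-values of each library, and of other lists at most the 3 lowest of each library. Alternatives were p under 0.01 and 0.001, Benjamini-Hochberg adjustment over all protein-coding genes (unlisted genes set to the highest value), the 77 genes of the standard ribosome, a join by symbol and, added after the data were seen, leaving out members with a listed neighbour. A listed chromosome 18 member, Rpl17, is named without sequence.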

Additional observations from a re-analysis of the deposited data

How the results depend on the processing

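Joining by symbol left all counts and medians as they were. With the 77 genes of the standard ribosome the counts stayed within 1.5 times (26 and 22 listed), and the median −log10 p was 2.94 (control) and 2.25 (Foxp1KspKO) instead of 3.01 and 2.08. With p under 0.01 the Foxp1KspKO list held 14 members (16.5%, beside 12.6% of all genes). Both lists held 8, the control list alone 13 and the Foxp1KspKO list alone 6. The control p-value was the lower for 5 shared members. The medians were then 3.77 and 3.09. With p under 0.001 the control list held 14 (16.5%, beside 14.3% of all genes) and the Foxp1KspKO list 7 (8.24%, beside 6.62%). Both lists held 4, the control list alone 10, the Foxp1KspKO list alone 3 and the unique list 5. For 2 shared members the control p-value was the lower, and the medians were 4.99 and 6.48. After Benjamini-Hochberg adjustment over all protein-coding genes 23 control and 10 Foxp1KspKO members passed, 5 in both and 5 in the Foxp1KspKO list alone, and 2 shared members had the lower control p-value, with medians of 3.17 and 5.38. Medians over the members that pass a stricter threshold rise by construction. Without members that had another listed gene within 10 kb, 18 and 19 stayed listed, 9 in both, 5 with the lower control p-value, with medians of 2.62 and 1.91. In each of these settings 0 small subunit genes were in the Foxp1KspKO list alone.

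No paired analysis was possible because each group held 1 library. Likewise no library was left out. Read depth is unknown, so a gene missing from a list was not shown to lack signal, and the conflict over the antibody bears on every comparison.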

Other observations

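Pseudogenes were outside the rule, but 6 of the 321 such symbols with -ps in the RefSeq table were listed, 4 in each library (1.25%) and 2 in both. Of all protein-coding genes 29.0% and 20.9% were listed. The share over all pseudogenes was not counted, so whether these copies differ from other pseudogenes is not known. Of these, 4 were copies of Rps12 within a stretch of chromosome X from 124469946 to 125858096 (GRCm38), which holds 7 such copies. In the authors' deposited table Rps12-ps15 had 6.07e-06 and Rps12-ps14 0.0108 in the Foxp1KspKO ChIP alone, and Rps12-ps13 had 0.00577 in the control ChIP alone. Rps12-ps11 was in both lists of the authors' deposited table, at 0.0405 for the control and 2.09e-05 for the Foxp1KspKO library. Rps12 itself, on chromosome 10, was in neither list. The other listed copies were Rps15a-ps5 (6.65e-04 and 9.87e-04 in the authors' deposited table) and Rpl31-ps12, which RefSeq records as protein-coding (0.00245 in the control ChIP alone). These copies resemble each other in sequence, and whether their reads were divided among them was not tested.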
